A study of Sus scrofa with 32 samples.

Results

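The genotype contrast was examined in the fetuses whose loin muscle carried little mature adipocyte RNA and little RNA of the muscle breakdown programme. A fetus was retained when ADIPOQ was below 8 FPKM (the abundance of a transcript, scaled by its length and by the depth of the library) and TRIM63 was below 15 FPKM, each read from the row of highest mean for its symbol. This kept 18 of the 32 fetuses, 11 crossbred and 7 Iberian, and left out 5 crossbred and 9 Iberian fetuses. RNA came from the longissimus dorsi muscle at day 77 of gestation, in 16 pure Iberian fetuses and 16 crossbred Iberian x Large White fetuses. All fetuses had the same age. Both genotypes were carried by pure Iberian sows inseminated with mixed semen of the 2 breeds, and by the study's methods all sows were restricted in feed during gestation. The fetuses had been picked for divergent body weight, and the labels do not give the weight class, so whether weight was evenly split between the retained groups was not tested. The retained crossbred fetuses were 5 females and 6 males, and the retained Iberian fetuses were 4 females and 3 males. The 4 digits that open a fetus name were taken as its sow, which no label states in words. On that reading the retained fetuses came from 6 of 7 sows, and 2 of these sows (1338 and 1401) kept fetuses of both genotypes. Sow 1410 gave 4 of the 7 Iberian fetuses and carried Iberian fetuses alone, whereas sow 1417 gave 5 of the 11 crossbred fetuses and no retained Iberian fetus, so genotype and litter cannot be told apart for most of the retained fetuses.

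ADIPOQ encodes adiponectin, a hormone made by mature adipocytes, and TRIM63 encodes MuRF1, a ubiquitin ligase that marks muscle proteins for degradation and is switched on in fasting and wasting muscle. At this stage of gestation the loin of the pig is composed of forming fibres, fibroblasts, vessels and the first fat cells. The Iberian pig is a slow-growing breed with high intramuscular fat, and the Large White is a lean breed, so a whole-muscle comparison between genotypes can differ both in regulation within a cell type and in the share of cell types. In whole tissue, fewer cells of a type and less RNA per cell cannot be told apart.

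ADIPOQ and TRIM63 chose the fetuses, and their values are given as a description. In the retained fetuses ADIPOQ ranged from 0.315 to 5.63 FPKM in crossbred and from 0.425 to 3.77 FPKM in Iberian fetuses. TRIM63 ranged from 5.82 to 10.3 FPKM in crossbred and from 7.36 to 9.95 FPKM in Iberian fetuses. The fetus nearest the ADIPOQ limit from below had 5.63 FPKM, and those nearest from above had 8.96, 9.81 and 11.3 FPKM. For TRIM63 the nearest values were 10.3 FPKM below and 19.1 FPKM above the limit. The 9 Iberian fetuses left out were mostly high in ADIPOQ (median 38.1 FPKM), whereas 3 of the 5 crossbred fetuses left out, all of sow 1340, had 50.9 to 98.3 FPKM of TRIM63. The fetuses left out therefore differed between genotypes in both measures.

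**Figure D1:**
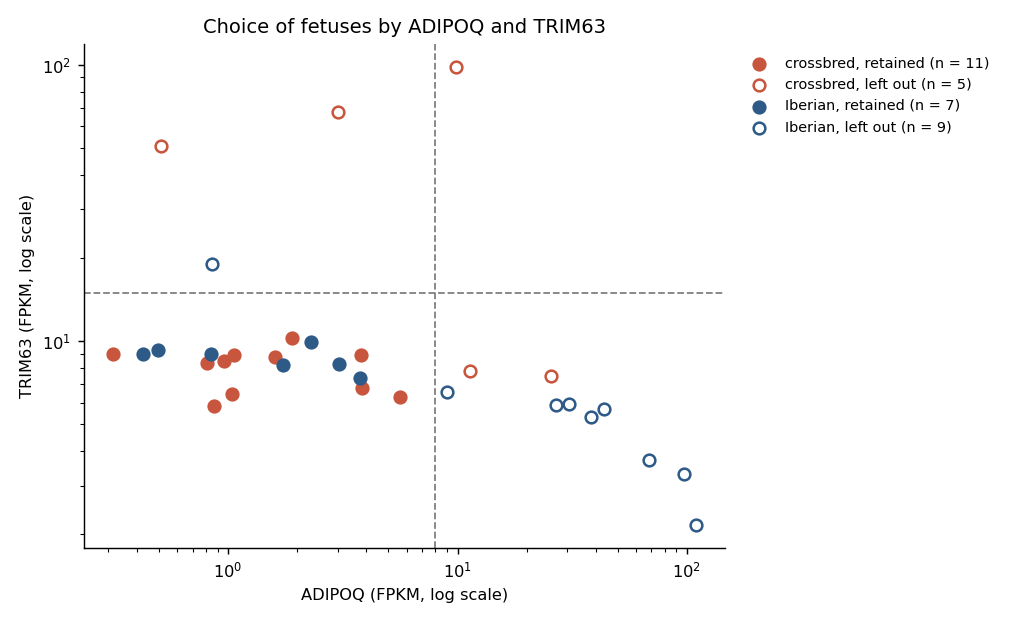
TRIM63 against ADIPOQ (FPKM, log scales) in each of the 32 fetuses, with the limits of 8 and 15 FPKM as dashed lines; filled points were retained and open points left out. The 11 crossbred and 7 Iberian retained fetuses lie in the lower left, the Iberian fetuses left out run to the right, and the 3 crossbred fetuses of sow 1340 lie at the top.

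The retained libraries carried the defining genes of fetal skeletal muscle at high level. Median ACTA1 (skeletal actin) was 7275 FPKM in the crossbred and 6390 FPKM in the Iberian group, median MYH3 (embryonic myosin) 569 and 543 FPKM, and median MYH8 (neonatal myosin) 736 and 721 FPKM. Of the other genes of the adipocyte and breakdown programmes, FABP4, the fatty acid binding protein of adipocytes, had medians of 28.9 and 28.5 FPKM, and FBXO32, the atrogin ligase, of 5.30 and 5.48 FPKM, crossbred first. The relative depth of the libraries ranged from 0.746 to 1.16 in retained crossbred and from 0.724 to 1.4 in retained Iberian fetuses, in units of the geometric mean of all libraries.

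Between retained crossbred and Iberian fetuses, 19 of 16634 tested loci were called (limma, with a Benjamini-Hochberg adjusted p up to 0.05 and a minimum fold of 1.3), 15 higher and 4 lower in crossbred fetuses, which is 0.114% of the loci tested. They lay at 14 genome positions, since 9 of them shared a position with another called locus, and 11 had a gene symbol. The gene names higher in crossbred fetuses were KIT, SNORD115, RNF212, CERS6, PUSL1, a merged DLX1 and METAP1D locus and a U6 locus. ARSE, listed as a pair of loci, DAPP1 and MPST were lower. With the sow as a term in the same fit no locus was called by limma. An unadjusted p under 0.05 was reached by 825 loci (4.96%), about the share that this limit passes by chance. All 19 were among these, but they had been called on the same fetuses. Without sow 1410, which leaves 3 Iberian fetuses, 1 locus was called, and it was none of the 19. All 19 kept their direction and an unadjusted p under 0.05 without that litter, in fewer of the same fetuses. The count was 5 without sow 1338, 6 without sow 1417, 36 without the crossbred fetus 1401F1 and 11 to 22 without any other single fetus, with 11 without the Iberian fetus 1338F3. In 10 loci (0.0601% of those tested) the retained groups did not overlap, and 7 of these were among the 19.

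The largest difference of fitted level was at a short locus with no gene name on chromosome 4, XLOC_018347, at chr4:92692338-92692484 of Sscrofa11.1. It lies within the coding part of exon 2 of 6 of a RefSeq gene model described as SLAM family member 9-like, on the + strand. SLAM family members are receptors on the surface of immune cells. The sequence is shown because it is the only called locus short enough to print whole. The capitals mark the 147 bases of the locus, of which 58.5% are G or C, with 60 bases of the reference genome (RefSeq, Sscrofa11.1, a Duroc animal) on either side, chr4:92692278-92692544.
XLOC_018347: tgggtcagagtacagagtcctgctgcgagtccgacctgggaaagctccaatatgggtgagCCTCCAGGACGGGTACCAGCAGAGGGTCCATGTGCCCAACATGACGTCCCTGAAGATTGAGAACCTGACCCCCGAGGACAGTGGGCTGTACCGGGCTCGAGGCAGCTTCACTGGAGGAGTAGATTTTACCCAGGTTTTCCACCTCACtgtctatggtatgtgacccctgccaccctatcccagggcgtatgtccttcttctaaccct

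The whole 147-base stretch occurs 1 time in the assembly, and of 3 windows of 50 bases the middle one occurs 2 times. In crossbred fetuses the locus ranged from 4.81 to 51.9 FPKM with a median of 14.7 FPKM. In Iberian fetuses it was listed at 0 in 6 of 7, and the remaining one (1401F2) had 6.79 FPKM, above the lowest crossbred value. The fitted difference was 4.69 (SE 0.55, adjusted p = 0.000215) on the scale of log2(FPKM + 0.5), and it moved to 6.66 and 3.87 with pseudocounts of 0.1 and 1 FPKM. No fold is given, because so many values were listed at 0. FPKM is scaled by length, so at 147 bases few reads can give a high value, and no read counts were available. How many reads lie behind these values is therefore unknown. In the fetuses left out the pattern was looser: 3 of 5 crossbred fetuses had 14.3 to 36.0 FPKM and 3 of 9 Iberian fetuses had 5.60 to 14.6 FPKM, with the others at 0. The median of the named gene SLAMF9 was 0 FPKM in both retained groups.

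KIT encodes the receptor tyrosine kinase for stem cell factor, which acts in melanocytes, mast cells, germ cells and blood progenitors, and it is the gene of the dominant white coat colour locus of pigs. The RefSeq gene lies on the + strand of chromosome 8 (41402334 to 41492306), and its locus in the table spans chr8:41402253-41493763. In retained crossbred fetuses KIT ranged from 6.04 to 11.8 FPKM (median 8.96), and in retained Iberian fetuses from 3.77 to 5.62 FPKM (median 4.47). Every crossbred fetus was above every Iberian fetus. The mean was 9.09 ± 1.59 FPKM (SD, n = 11) against 4.58 ± 0.548 FPKM (SD, n = 7), and the fitted difference was 0.91 on the log2 scale (SE 0.11), a fold of 1.87, with an adjusted p of 0.000215. Leaving out any single fetus kept the call, with adjusted p values up to 0.00120. The groups were also separate in all 32 fetuses: the lowest of 16 crossbred values was 6.04 FPKM and the highest of 16 Iberian values 5.62 FPKM. Both of these fetuses were of sow 1338.

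The other genes of the KIT list did not follow it. Of the 11 tested genes of KIT and its signalling 8 had a higher estimate in crossbred fetuses and KIT alone was called, with a median log2 difference of 0.035, against 0.003 over all loci. KITLG, the ligand, differed by -0.03 (SE 0.17), and the neighbours PDGFRA (0.03, SE 0.10) and KDR (0.02, SE 0.10), receptor kinases on the same part of chromosome 8, by no more. Because KIT marks mast cells and melanocytes, their lists are given beside it. The summed level of 8 matched mast cell genes ranged from 52.3 to 101 FPKM in crossbred and from 52.3 to 97.1 FPKM in Iberian fetuses, and none of the 3 tested was called. CPA3, a protease of mast cells, was listed at 0 in all 18 fetuses. The 10 melanocyte genes summed to 14.7 to 20.7 FPKM in crossbred and 15.7 to 20.3 FPKM in Iberian fetuses, none of the 6 tested was called, MLANA was at 0 in all of them, and TYR did not exceed 0.0674 FPKM. KIT correlated with TRIM63 across the 32 fetuses after centring by genotype (r = 0.54), which is a description over fetuses that share litters. The 3 crossbred fetuses of sow 1340, which had the highest TRIM63, had 9.78 to 14.3 FPKM of KIT. The part of TRIM63 alone in the KIT difference was not tested. A fit of all 32 fetuses with ADIPOQ and TRIM63 as covariates kept the direction of all 19 called loci, KIT among them. Those fetuses include the ones on which the loci were called.

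ARSE encodes arylsulfatase E, an enzyme of the Golgi that is known from human chondrodysplasia punctata for its part in the formation of cartilage and bone. The table lists it as 2 loci with the same position, chrX:126532-155841, which also covers a RefSeq long non-coding RNA on the other strand. Since the libraries were not stranded, reads of the overlapping transcripts cannot be told apart, and the 2 loci are not independent. At the more abundant locus (XLOC_029663) the crossbred fetuses ranged from 1.49 to 2.89 FPKM (median 2.27) and the Iberian fetuses from 3.89 to 7.53 FPKM (median 5.17). The groups did not overlap. The fitted difference was -1.06 (SE 0.12), a fold of 2.09, with an adjusted p of 0.000215. The other locus (XLOC_029110) ranged from 1.76 to 2.57 FPKM in crossbred and from 3.15 to 5.60 FPKM in Iberian fetuses, and the difference was -0.95 (SE 0.10, adjusted p = 0.000148). Over all 32 fetuses the more abundant locus stayed separate, with at most 3.12 FPKM in crossbred and at least 3.34 FPKM in Iberian fetuses. The lesser one overlapped, and it was linked to ADIPOQ (r = -0.69). Of 16 tested sulfatases and sulfatase-modifying genes only ARSE was called, and the list median was 0.03.

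SNORD115 is a family of box C/D small nucleolar RNAs that in human and mouse lies in the imprinted region of Prader-Willi syndrome. The called locus has the position chr1:142035569-142089174, where RefSeq annotates no gene, and an unnamed locus with the same position (XLOC_002411) was called with it. SNORD115 ranged from 4.08 to 21.1 FPKM in crossbred fetuses (median 7.63) and from 0.135 to 2.65 FPKM in Iberian fetuses (median 0.637). No value overlapped. The fitted difference was 2.84 (SE 0.32, adjusted p = 0.000215), a fold of 7.17 on the scale with the pseudocount. The unnamed locus ranged from 0.479 to 3.76 FPKM in crossbred fetuses, and it was listed at 0 in 5 of 7 Iberian fetuses, with 0.283 and 0.431 FPKM in the others. This unnamed locus stayed separate between genotypes over all 32 fetuses. A snoRNA is shorter than most fragments of an mRNA library, and the gene family has many copies, so the assignment of these reads to SNORD115 is uncertain.

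CERS6, PUSL1 and the DLX1 and METAP1D locus were higher in crossbred fetuses with small overlap. CERS6, a ceramide synthase of sphingolipid synthesis (chr15:74927075-75261707), ranged from 1.43 to 3.80 FPKM (median 2.52) in crossbred and from 0.579 to 2.16 FPKM (median 0.981) in Iberian fetuses, a difference of 0.95 (SE 0.18, adjusted p = 0.0339). The 2 highest Iberian fetuses, 1410F3 and 1401F2, lay within the crossbred range. The locus that joins METAP1D, a mitochondrial methionine aminopeptidase, and DLX1, a homeobox transcription factor (chr15:78098362-78191297), ranged from 4.87 to 11.9 FPKM in crossbred and from 2.21 to 6.27 FPKM in Iberian fetuses, a difference of 1.05 (SE 0.20, adjusted p = 0.0358). The table does not separate the 2 genes. PUSL1, a pseudouridine synthase (chr6:63593901-63607921), ranged from 1.31 to 2.52 FPKM in crossbred and from 0.737 to 1.41 FPKM in Iberian fetuses, a difference of 0.67 (SE 0.12, adjusted p = 0.0224). Its RefSeq end overlaps INTS11 on the other strand, and INTS11 differed by 0.03 (SE 0.16). Each of these 3 calls was lost when some single fetus was left out, with adjusted p values up to 0.10 for CERS6, 0.113 for the DLX1 and METAP1D locus and 0.0833 for PUSL1.

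RNF212, a ligase known from mouse for its part in meiotic recombination (chr8:397900-413918), was low in both genotypes. It ranged from 0.664 to 2.85 FPKM in crossbred fetuses (median 1.92) and from 0.144 to 0.504 FPKM in Iberian fetuses (median 0.424). The retained groups did not overlap, and the difference was 1.25 (SE 0.20, adjusted p = 0.0111). In the fetuses left out the groups overlapped, and 1 crossbred fetus (1412F2) reached 10.4 FPKM.

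MPST, a mitochondrial and cytosolic sulfurtransferase that takes part in hydrogen sulfide production, was lower in crossbred fetuses. It ranged from 0.474 to 1.03 FPKM in crossbred fetuses (median 0.824) and from 1.22 to 1.45 FPKM in Iberian fetuses (median 1.31), with no overlap. The difference was -0.51 (SE 0.09, adjusted p = 0.0358), and without single fetuses the adjusted p reached 0.107. MPST (chr5:10736051-10763360) overlaps TST, a related sulfurtransferase on the other strand, in RefSeq. TST was more abundant, with a median of 9.47 FPKM in the crossbred and 11.6 FPKM in the Iberian group, and differed by -0.33 (SE 0.24, adjusted p = 1).

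DAPP1 encodes an adaptor protein with a phosphoinositide-binding domain, known from B cells. At chr8:120645738-120722549 it had the largest difference among the loci lower in crossbred fetuses. It ranged from 0.445 to 3.83 FPKM in crossbred fetuses (median 0.753) and from 2.25 to 4.35 FPKM in Iberian fetuses (median 2.81). Of the 11 crossbred fetuses 10 were at or below 1.08 FPKM, under every Iberian fetus, and the remaining one was 1401F1, at 3.83 FPKM. The difference was -1.37 (SE 0.23, adjusted p = 0.0132). In the fetuses left out the difference was -0.10 (SE 0.32), since 4 of 5 crossbred fetuses had 2.47 to 3.22 FPKM. The test of the difference between retained and left-out fetuses gave -1.27 (SE 0.39, adjusted p = 0.0400), where 1526 of 17703 loci (8.62%) passed that test and 0 passed with the sow in the limma fit, with 1419 at an unadjusted p under 0.05. By sow, the crossbred fetuses of sows 1338, 1404, 1412 and 1417 had at most 1.08 FPKM, and those of sows 1340 and 1401 at least 2.47 FPKM, so litter and choice of fetuses cannot be told apart here. DAPP1 was linked to TRIM63 (r = 0.67).

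**Figure D2:**
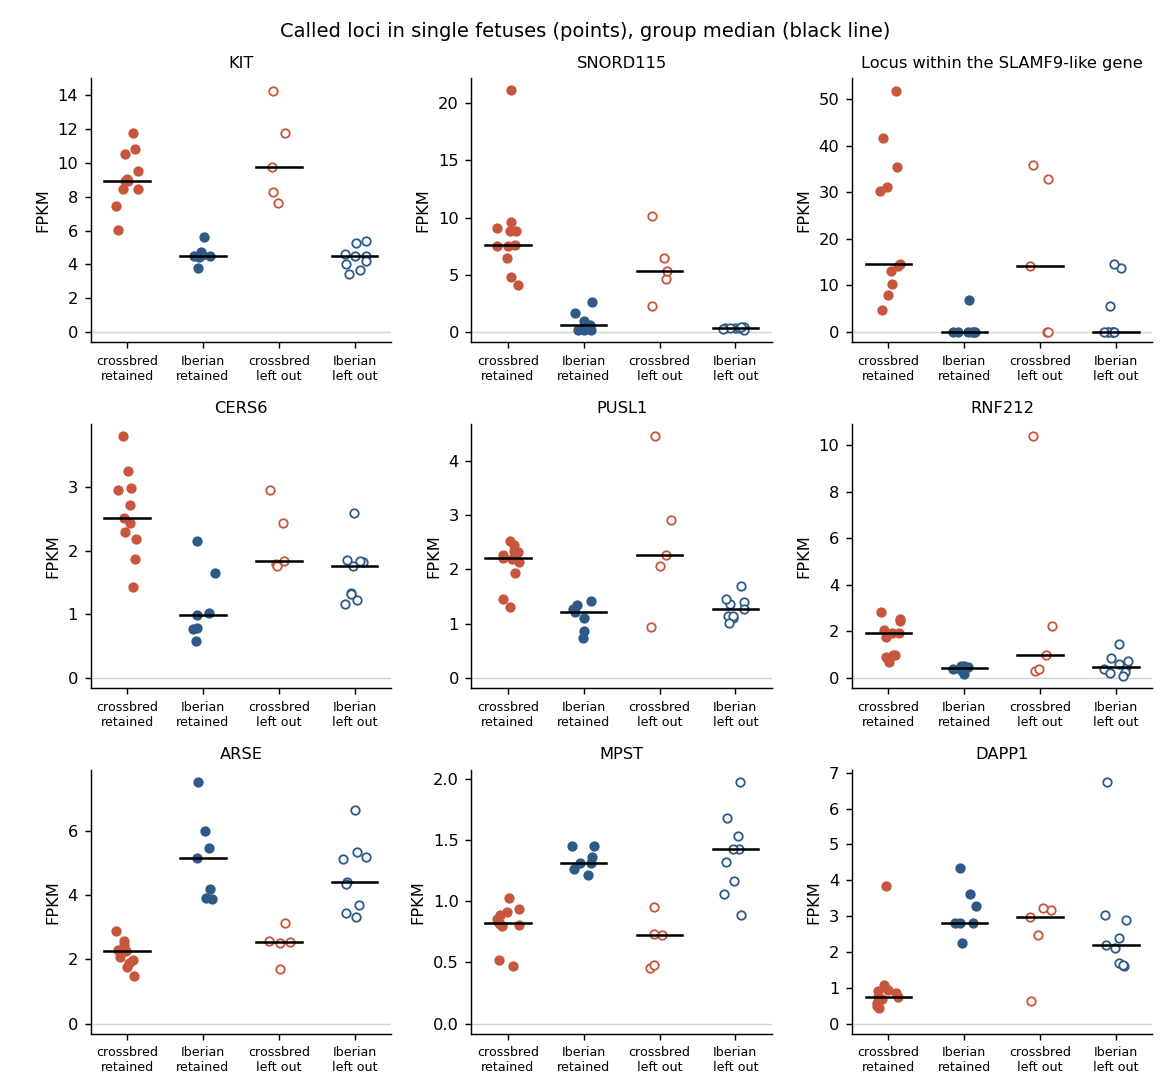
FPKM of 9 called loci in single fetuses (points; filled retained, open left out) by genotype, with the group median as a black line. KIT, SNORD115, RNF212, ARSE and MPST show no overlap between the retained genotypes, and DAPP1 shows 1 retained crossbred fetus at the Iberian level (3.83 FPKM).

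The remaining called loci had no gene name or an Ensembl number alone. ENSSSCG00000035593 has the position chr1:51313014-51429649, which in RefSeq covers OGFRL1, a long non-coding RNA, another coding gene and the hairpins of miR-30c-2 and miR-30a. It ranged from 3.57 to 7.22 FPKM in crossbred and from 2.07 to 3.61 FPKM in Iberian fetuses, a difference of 0.77 (SE 0.12, adjusted p = 0.00721). OGFRL1, at the same position, differed by -0.02 (SE 0.16). On chromosome 7 (chr7:21950389-22000953, beside the zinc finger genes ZKSCAN8 and ZSCAN16) 3 unnamed loci were called, with differences of 1.24, 1.81 and 0.97. In each of them the crossbred fetus 1412F5 was the lowest of its group and lay within the Iberian range. The named zinc finger locus at that position differed by 0.15 (SE 0.09, adjusted p = 1). At chr10:65336089-65372551, within a RefSeq coding gene on the - strand, a U6 locus and an unnamed locus differed by 1.05 and 1.23. In both the Iberian fetus 1410F1 stood at the crossbred level, with 0.819 and 1.11 FPKM, while the other 6 Iberian fetuses had at most 0.143 FPKM. U6 is a spliceosomal RNA with many copies, so its reads are uncertain. ENSSSCG00000031581, on an unplaced scaffold, differed by 1.91 (SE 0.35, adjusted p = 0.0304) and was the only called locus that was not called over all 32 fetuses. It differed by 0.02 (SE 0.90) in the fetuses left out, where 3 Iberian fetuses of sow 1404 had 7.83 to 10.6 FPKM.

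The 14 fetuses left out did not take part in the retained fit and give values of the same 19 loci in other animals, although from partly the same sows. All 19 had the same direction there, 11 had an unadjusted p under 0.05 and 8 were called. In that comparison 1898 of 17016 loci (11.2%) were called, and its genotypes also differed in ADIPOQ and TRIM63. The 8 were KIT, both ARSE loci, SNORD115 and its unnamed neighbour, MPST, ENSSSCG00000035593 and the U6 locus. KIT differed by 1.12 (SE 0.15), SNORD115 by 2.77 (SE 0.23), ARSE by -0.77 (SE 0.16) and MPST by -0.69 (SE 0.15). CERS6 differed by 0.30 (SE 0.16) and DLX1 with METAP1D by 0.50 (SE 0.27), estimates under those of the retained fetuses. The difference between the 2 sets of fetuses was tested and passed for DAPP1 alone among the 19.

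Over all 32 fetuses 5 sows carried both genotypes. The mean log2 difference had the direction of the retained fetuses in all 5 sows for 16 of the 19 loci, in 4 sows for CERS6 and DAPP1 and in 3 sows for ENSSSCG00000031581. These sow means hold retained fetuses on which the 19 were called, so this agreement is partly built in. With the sow in the fit of all 32 fetuses 14 of the 19 were called, where 48 of 16750 loci were called in all.

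**Figure D3:**
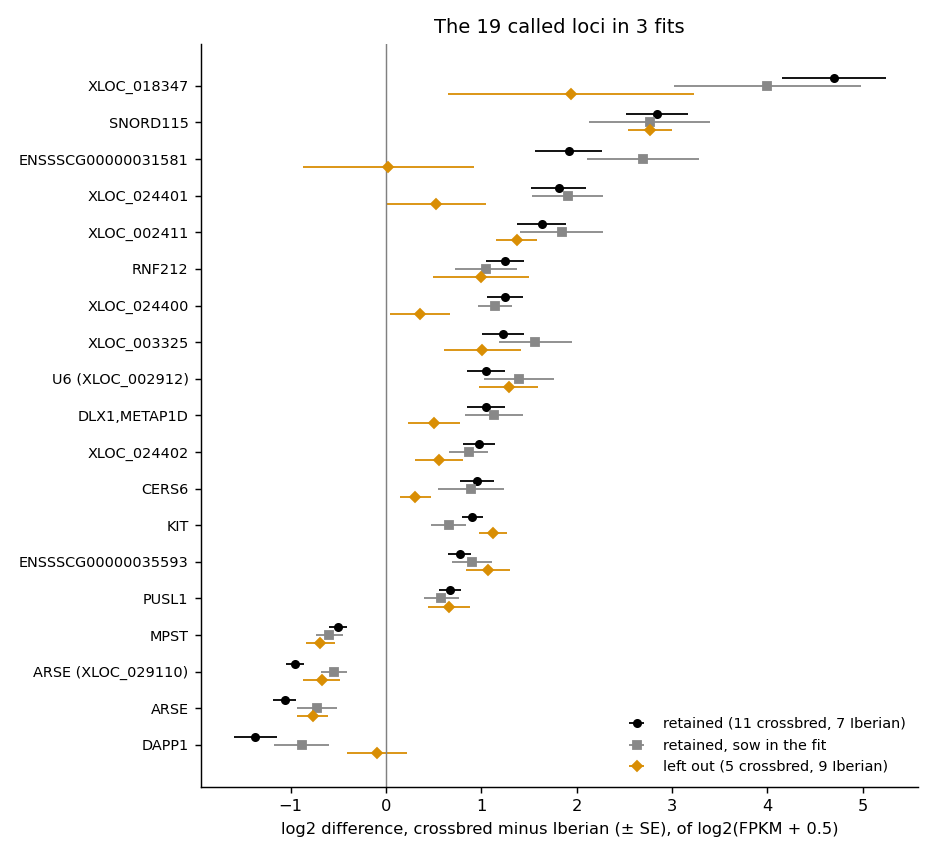
Difference between crossbred and Iberian fetuses (log2 scale, ± SE) at the 19 called loci in the retained fetuses (black), in the retained fetuses with the sow in the fit (grey) and in the fetuses left out (orange). All estimates have the direction of the retained fetuses, and those of DAPP1 and ENSSSCG00000031581 lie near 0 in the fetuses left out.

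Within the retained fetuses the 19 loci had the same direction in females (5 crossbred, 4 Iberian) and in males (6 crossbred, 3 Iberian). The 19 were called on these same fetuses, so a shared direction is largely built in and is given as a description. ARSE differed by -1.15 in females and -0.93 in males, SNORD115 by 2.95 and 2.71, and MPST by -0.44 and -0.56. In females alone limma called no locus and 948 of the loci (5.62%) had an unadjusted p under 0.05. In males alone 2 loci were called. The difference between the sexes was not tested.

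Over all 32 fetuses 227 of 16750 loci (1.36%) were called, 142 higher and 85 lower in crossbred fetuses. With median-of-ratios rescaling the split was 140 higher and 133 lower. The retained fetuses are part of the 32, so the comparisons share samples. Of the 19 loci 18 (94.7%) were among the 227, of which they made up 7.93%. A locus was termed linked when its centred log2 values correlated with those of ADIPOQ or TRIM63 at an absolute r of at least 0.5 over the 32 fetuses. By this description 101 of the 227 loci (44.5%) and 3 of the 19 (KIT, DAPP1 and the lesser ARSE locus) were linked, against 33.6% of all loci tested in the retained fetuses. Among the loci higher in crossbred fetuses, the 61 linked ones had a median log2 difference of 0.66 over all fetuses and 0.26 in the retained ones, and the 77 others 0.80 and 0.71. Among those lower in crossbred fetuses, the 36 linked ones went from -0.57 to -0.23 and the 47 others from -0.61 to -0.53. The link was measured on these fetuses and is close to what the choice of fetuses removes, so these medians are a description.

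**Figure D4:**
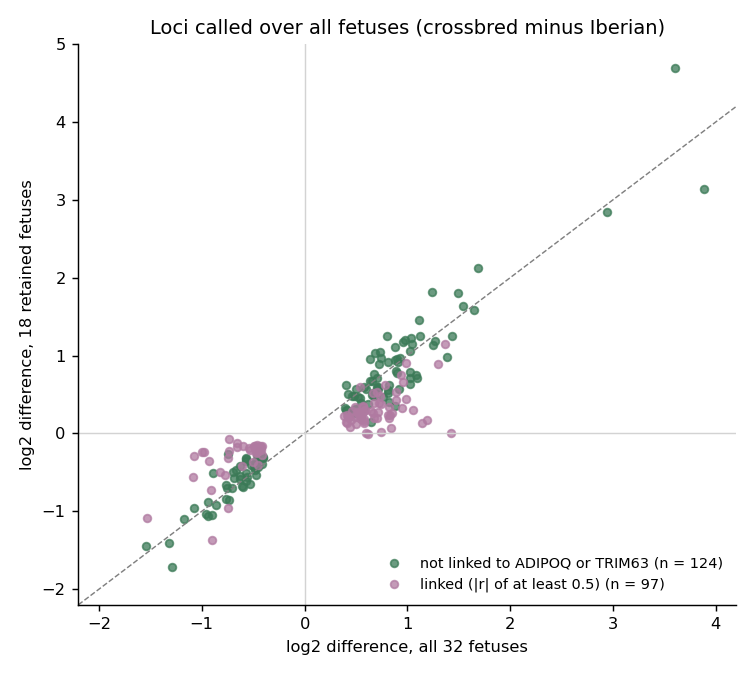
Difference between crossbred and Iberian fetuses (log2 scale) over all 32 fetuses and over the 18 retained fetuses at the 221 loci called over all fetuses and tested in both, with loci linked to ADIPOQ or TRIM63 in purple (n = 97) and the others in green (n = 124). The dashed line marks equal values, and the linked loci lie nearer 0 on the vertical axis.

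Among named genes called over all 32 fetuses, those whose difference shrank most in the retained fetuses included IGFN1, a muscle protein of the sarcomere, which went from 1.43 (SE 0.38) to 0.01 (SE 0.19). XCR1, a chemokine receptor, went from 1.19 to 0.17, SLC43A1, an amino acid transporter, from 1.05 to 0.30, KCNG2, a potassium channel subunit, from 0.74 to 0.02, and ADORA1, an adenosine receptor, from 0.82 to 0.19. Of those lower in crossbred fetuses, SFRP1, a secreted Wnt antagonist, went from -1.07 to -0.29, KCTD12 from -0.73 to -0.07, CHST2, a sulfotransferase, from -1.0 to -0.24, ADAMTS19, a secreted protease, from -0.93 to -0.36 and FAM78B from -0.98 to -0.23. All 10 were linked to ADIPOQ or TRIM63, and none was called in the retained fetuses. In the fetuses left out IGFN1 differed by 2.90 and XCR1 by 2.76, and both passed the test of the difference between retained and left-out fetuses (adjusted p = 0.00756 and 0.00545), as did OPLAH, PRR18, CACNA1H and SLC43A1, which were among the symbols of smallest p in that test. With the sow in that fit none passed.

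Most gene lists had medians near 0 in the retained fetuses. Of 32 lists 28 had a median log2 difference within 0.1 of 0, compared with 12 over all fetuses. Without the litter of sow 1410 most of the lists lay beyond 0.1, against a background median of -0.04. The count of 28 thus held only with that litter. The background median over all loci was 0.003 in the retained and 0.027 in all fetuses. The lists of adipocytes and of atrophy and FOXO signalling follow from the choice of fetuses, since 13 of the 16 and 30 of the 33 tested genes were linked to ADIPOQ or TRIM63, and they are given as a description. Without ADIPOQ, 15 adipocyte genes had a median of -0.04, and 12 of them were lower in crossbred fetuses. Over all fetuses the median without ADIPOQ was -0.57, but over more genes. CIDEC, LEP, TUSC5 and PCK1 passed the filter on low values there and not in the retained fetuses, so the 2 medians are not of the same genes. Without TRIM63, 32 genes of atrophy and FOXO signalling had a median of -0.07, against 0.29, and 22 of them were lower. Neither list had a called gene in either comparison. The smallest p among the adipocyte genes was that of the locus of CIDEA, a lipid droplet protein (-0.26, adjusted p = 0.788), and among the atrophy genes that of a metallothionein locus (MT1X and MT1A, -0.53, adjusted p = 0.230). PPARG, the master regulator of adipocytes, differed by -0.03 (SE 0.18) and PLIN1, a lipid droplet protein, by -0.08 (SE 0.39). FOXO1 and FOXO3, transcription factors of the breakdown programme, differed by 0.05 (SE 0.07) and 0.12 (SE 0.09).

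The muscle lists hold neither ADIPOQ nor TRIM63, but many of their genes were linked to them, against 33.6% of all loci. Linked were 15 of 36 sarcomere genes, 18 of 25 myogenic regulators and 17 of 21 genes of excitation. In glycolysis 8 of 18 were linked, and in the neuromuscular list 8 of 15. Their medians are thus partly bound by the choice of fetuses and are a description. The 36 sarcomere genes had a median of 0.03, with 21 higher in crossbred fetuses, against 0.32 over all fetuses, and the 25 myogenic regulators 0.003, with 13 higher, against 0.32. MYH3 differed by 0.13 (SE 0.16) and MYOD1, a master regulator of muscle, by -0.001 (SE 0.22). The 21 genes of excitation and calcium handling had a median of 0.01 against 0.25, and the 18 genes of glycolysis and glucose transport 0.01 against 0.26. The 15 genes of the acetylcholine receptor and the neuromuscular junction had a median of -0.06, and CHRNA1, the receptor's alpha subunit, differed by 0.38 (SE 0.10, adjusted p = 0.194). None of these lists held a called gene in the retained fetuses, where 0.114% of all loci were called, and the sarcomere, excitation and neuromuscular lists held 1 each over all 32 fetuses, where 1.36% were. These medians moved without the litter of sow 1410: the sarcomere list to -0.28, glycolysis to -0.34, the respiratory chain from 0.02 to -0.31 and adipocytes to -0.26, so how level the lists were depended on which Iberian litter was compared.

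**Figure D5:**
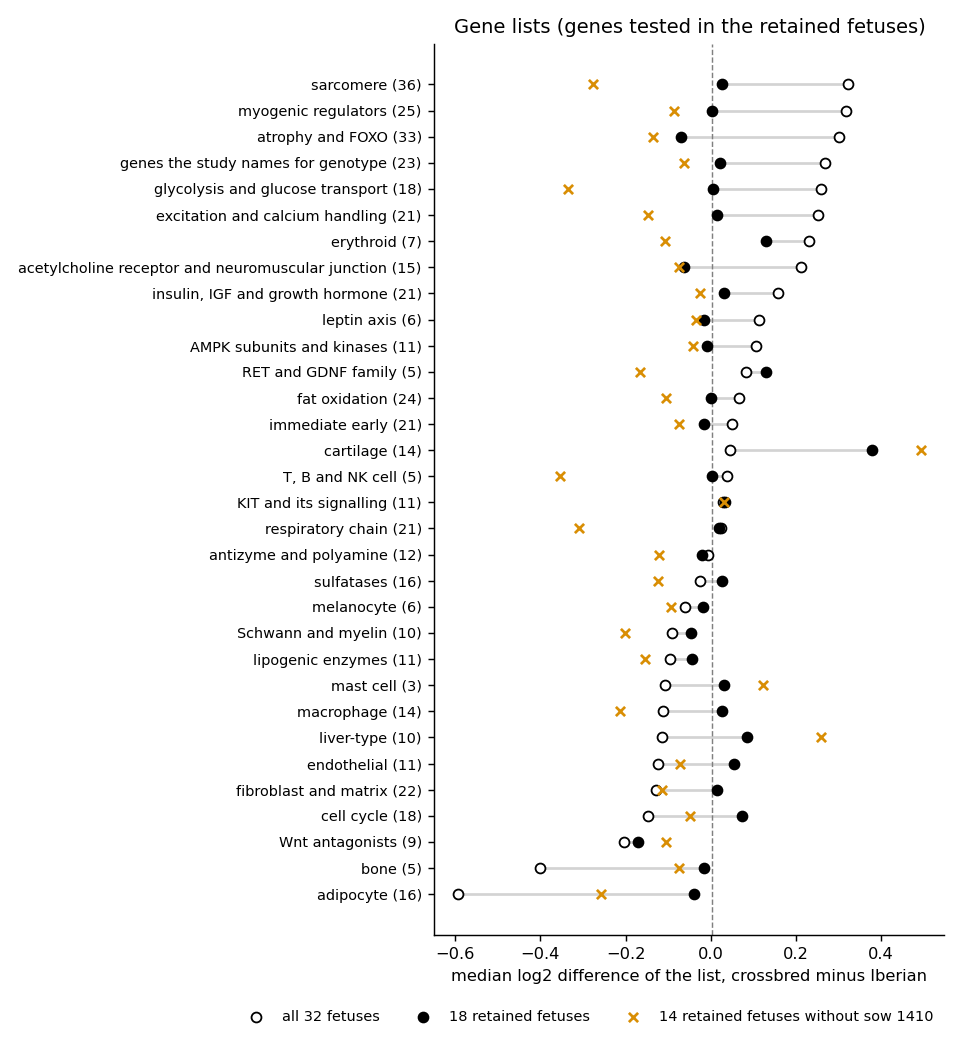
Median log2 difference between crossbred and Iberian fetuses of the 32 gene lists over all 32 fetuses (open), the 18 retained fetuses (filled) and the 14 retained fetuses without sow 1410 (crosses). The number of genes tested in the retained fetuses is in parentheses, and the median of all loci is a dashed line. Muscle lists move from 0.32 towards 0, adipocytes from -0.59 over 20 genes to -0.04 over 16, and cartilage to 0.38.

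In the retained fetuses 4 lists had medians beyond 0.1. The cartilage list had the largest, 0.38, with 13 of 14 tested genes higher in crossbred fetuses and none called. Its summed level ranged from 51.3 to 492 FPKM in crossbred and from 59.7 to 114 FPKM in Iberian fetuses. The highest value belonged to 1 crossbred fetus (1417F1), which had 210 FPKM of COL2A1, the collagen of cartilage, and without it the median was 0.12. SOX9, a transcription factor of chondrocytes, differed by 0.32 (SE 0.10, adjusted p = 0.396). The 9 secreted Wnt antagonists had a median of -0.17, the 5 genes of RET and the GDNF family and the 7 erythroid genes 0.13 each, with none called. Without the Iberian fetus 1410F2 the last 2 medians were 0.01 and 0.04, and without sow 1410 they turned to -0.17 and -0.11.

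Of the 27 genes that the study names for genotype, ADIPOQ and TRIM63 among them, 23 passed the filter on low values in the retained fetuses and 13 of these had a higher estimate in crossbred fetuses. This list was chosen by the study on these fetuses. The differences ranged from -0.44 to 0.94. None was called in the retained fetuses, and 1 was called over all 32. The study called its genes with Cuffdiff, a different test, so these counts cannot be set against its own. By qPCR in the 32 fetuses it also reported differential expression of APOE, PPARG, ADIPOQ, PLIN1 and TRIM63, though not of FOS and INSR. The lowest difference was that of APOE, an apolipoprotein (-0.44, SE 0.22, adjusted p = 0.964), and FOS, an immediate early transcription factor, differed by 0.54 (SE 0.18, adjusted p = 0.481).

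The one of them called over all 32 fetuses was ENSSSCG00000038226, which the study names TBL1X, a subunit of a transcriptional corepressor complex, at chrY:4600241-4667658. It differed by 0.88 (SE 0.20, adjusted p = 0.0172) over all fetuses and by 0.94 (SE 0.32, adjusted p = 0.479) in the retained ones, and was not linked to ADIPOQ or TRIM63. Its level was low, up to 1.76 FPKM in crossbred fetuses, and no Iberian fetus was above 0.00608 FPKM. Of the crossbred fetuses 7 of 8 males and 3 of 8 females were above 0.1 FPKM, so reads were assigned to it in both sexes. The sex labels themselves held, with DDX3Y, a gene of the Y chromosome, at 20.9 FPKM or more in every male and at most 0.0460 FPKM in every female.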

How the data were processed

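RNA of the longissimus dorsi muscle of 32 fetuses was sequenced by the authors from unstranded mRNA libraries. Per the labels, reads were trimmed with Trim Galore, mapped to the Sscrofa11.1 assembly by TopHat2 (2.1.0) on Bowtie2 (2.2.7.0), and quantified with Cufflinks 2.2.1 and Cuffdiff. The deposited table holds FPKM for 30413 loci, with no read counts, so small values have no counting interval, and fractional assignment of multiple hits can shift repeated genes. In 2 libraries (1340F5 and 1410F6) the values have more than 6 digits. A locus position is that of its assembly bundle, which several loci can share. The table's start was taken as counted from 0, and 1 was added.

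The deposited FPKM were put on a log2 scale after adding 0.5, and limma (3.58.1, R 4.3.3, trended variances) was fitted to loci whose mean passed 0.5 FPKM in some group. A call needed a Benjamini-Hochberg adjusted p up to 0.05 and a minimum fold of 1.3, and no minimum fold in the difference between retained and left-out fetuses. All p-values assume independent fetuses. Alternatives were other pseudocounts, filters and limits, rescaling, sow and sex terms, covariates, an exact rank test, single sexes, and leaving out each fetus or sow. Without sows 1410 and 1417 together was added after seeing the data. The gene TBL1X was found in the table by the Ensembl number that the study gives for it. Gene lists are described by counts and medians, without a test. The fits were tested on simulated data.

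The limits, the lists and the rule for named genes were chosen with earlier results of these data known. Named are all called symbols, ADIPOQ and TRIM63, genes the study names for genotype, list members with the smallest p, the 5 symbols per direction that shrank most, the 5 with the smallest p for the difference, and neighbours. Unnamed loci, markers and single list members such as SOX9 and COL2A1 were named after their values were seen. Random sow effects were fitted with statmod 1.5.0, and tables and plots were made in Python 3.11.15 (matplotlib 3.10.9, pandas 2.3.3, numpy 2.4.6, scipy 1.17.1).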

Additional observations from a re-analysis of the deposited data

Results flagged for a closer look

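In each called locus the highest and lowest fetus of the retained Iberian group and of both left-out groups was compared with the others by Dixon's test. Of 57 groups 8 had a fetus far from the rest. This count cannot be set against a chance rate, since Dixon's test assumes normal values and many of these FPKM were very low. Called loci that share a position are also not independent, and the retained Iberian values helped to call the loci. Among the retained Iberian fetuses 1410F1 was high at both chromosome 10 loci, with 0.819 FPKM at the U6 locus and 1.11 FPKM at XLOC_003325. The fetus 1401F2 was the only one with a value at XLOC_018347 (6.79 FPKM), and 1410F2 was the highest at XLOC_024400 (0.514 FPKM). Among the Iberian fetuses left out, 1340F7, which was left out for TRIM63, was the highest in CERS6 (2.59 FPKM) and in DAPP1 (6.74 FPKM). Among the crossbred fetuses left out, 1412F2 was the highest in RNF212 (10.4 FPKM) and the lowest in DAPP1 (0.641 FPKM). Their cause was not tested.

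DAPP1 was the single called locus whose breed effect differed between retained and left-out fetuses by a test of the difference (-1.27 on the log2 scale, SE 0.39, adjusted p = 0.0400, limma). Of the retained crossbred fetuses 10 of 11 were below every retained Iberian fetus, and of the crossbred fetuses left out 1 of 5 was below every Iberian fetus left out. DAPP1 was linked to TRIM63, which helped to choose the fetuses, so this result is a description.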

How the results depend on the processing

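No called locus changed direction under any alternative, but the alternatives reuse fetuses on which the 19 were called. The count of 19 moved to 0 with the sow as replicate block, where 825 loci (4.96%) had an unadjusted p under 0.05. It moved to 9 with the sow as a random effect and to 3 in the 2 sows that kept both genotypes. It was 5 without sow 1338, 1 without sow 1410, 6 without sow 1417 and 1 without both 1410 and 1417. None of the 19 was among the calls in the 2 sows, without sow 1410 or without both. It was 0 in females and 2 in males, 11 with named loci alone, 126 with the TRIM63 limit alone and 49 over all 32 fetuses with ADIPOQ and TRIM63 as covariates. Without single fetuses it ranged from 11 to 36, with 11 to 19 of the 19 called. The highest count was without the crossbred fetus 1401F1 and the lowest without the Iberian fetus 1338F3. The exact rank test called 0, with 920 (5.53%) at an unadjusted p under 0.05. Its smallest possible p, 6.28e-05, was reached by 10 loci and gave an adjusted p of 0.105, so it could not pass. Other pseudocounts, filters, limits, rescaling, robust variances and a sex term gave 14 to 24. Over all fetuses the sow block moved 227 calls to 48, and for the difference between retained and left-out fetuses 1526 to 0. In their deviations, retained fetuses of 1 sow and genotype had a mean r of -0.02 over 20 pairs (-0.32 to 0.34). Pairs of 1 genotype from different sows had -0.15 over 56 pairs (-0.46 to 0.32). Fetuses of 1 sow were thus more alike on average, with wide overlap, and the difference was not tested. Pairs of 1 sow and different genotype had -0.03 over 5 pairs. The pairing by sow rests on the fetus names. Differences in loci near 0.5 FPKM depend on the pseudocount.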

Other observations

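Some genes just missed the limit in the retained fetuses and were picked after their values were seen. PEG3, an imprinted zinc finger gene of growth, ranged from 9.27 to 20.4 FPKM in crossbred and from 7.19 to 9.71 FPKM in Iberian fetuses. The difference was 0.57 (SE 0.12, limma adjusted p = 0.0998), and this locus was called over all 32 fetuses. Another PEG3 locus (XLOC_021708), linked to ADIPOQ or TRIM63, was also called over all 32 fetuses. It differed by 0.49 there and by 0.34 in the retained fetuses. OAZ3, an antizyme that binds ornithine decarboxylase and is best known from testis, ranged from 0.204 to 7.22 FPKM in crossbred and from 0 to 3.26 FPKM in Iberian fetuses. It differed by 2.13 (SE 0.49, adjusted p = 0.133), with 1404F3 the only crossbred fetus under 2.85 FPKM. PRKX, a protein kinase of the X chromosome, differed by 0.61 (SE 0.14, adjusted p = 0.142) in the retained fetuses and by -0.31 in those left out, and the difference between both had an adjusted p of 0.0236.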
